A study of Mus musculus with 23 samples.

Results

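Pld1, Dock9 and Med13l were examined across 23 RNA-seq libraries of primary mouse embryonic fibroblasts (MEFs). These 3 genes, of 55487 in the count table, were chosen by their level in cells with the unmodified glucocorticoid receptor (GR), where each was 2-fold or more higher with the synthetic glucocorticoid dexamethasone (Dex) from a well measured base. All 3 were among the 15748 genes that passed the filter on low counts. Because that contrast chose the genes, their values in it are described without a test, its calls over all genes are given only as background, and the 3 genes are tested only within and between the mutants.

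The MEFs were of the FVB/NJ strain, and every group shared this background. They carried the wild-type receptor (GRwt/wt) or were homozygous for a mutant one. In GRD/D, threonine replaces an alanine in the part of the DNA-binding domain through which receptors pair. In GRL/L, alanine replaces an isoleucine of the domain that binds ligand, and the double mutant GRD+L/D+L has both changes. The mutations are germline changes of the receptor gene itself, with no transgene or Cre, and cultures within a genotype came from different mice. Cells received solvent (vehicle) or 10 nM Dex for 5 h, with 3 libraries per group except GRD/D vehicle, which had 2.

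Dex is a ligand of GR, a nuclear receptor that moves to chromatin when bound and controls transcription there. Pld1 encodes phospholipase D1, an enzyme that cleaves phosphatidylcholine to the lipid messenger phosphatidic acid and is switched on by small GTPases and protein kinase C. Dock9, also called zizimin 1, encodes an exchange factor that activates CDC42, a GTPase that organises the actin cytoskeleton. Med13l encodes a subunit of the kinase module of Mediator, the complex that links transcription factors with RNA polymerase II, and the module can detach from the core of Mediator. Their products thus act in lipid signalling, cytoskeletal signalling and transcription.

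All 3 are protein-coding genes of build GRCm38. Pld1 (ENSMUSG00000027695) lies on chromosome 3 from 27938695 to 28133362 on the plus strand. Dock9 (ENSMUSG00000025558) lies on chromosome 14 from 121542046 to 121797837 on the minus strand. Neither overlaps another annotated gene. Med13l (ENSMUSG00000018076) lies on chromosome 5 from 118560679 to 118765438 on the plus strand and overlaps 6 provisional transcripts, of which only Gm43785, on the opposite strand, shares exon sequence (55 bases). Exons of the 3 genes cover 12961, 13245 and 15427 bases.

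The sequences just before the transcription starts of the 3 genes are shown to set what precedes each counted transcript beside the motif bound by the Dex-activated receptor. RefSeq (GRCm38.p6) gives 6 starts, 2 for Pld1, 3 for Dock9 and 1 for Med13l. The bases after the middle Dock9 start were not found in a GENCODE transcript of the gene. Up to 250 bases before the outermost start of each gene are printed 5′ to 3′, ending before the RefSeq start or, where a GENCODE exon begins earlier, before that exon, together with the inner Dock9 start that holds a motif match. Capitals mark matches to the half-site of the receptor's binding motif, AGAACA, or TGTTCT on the other strand. The Pld1 stretch is chr3:27938430-27938679 (plus strand), the outer Dock9 stretch chr14:121797838-121797984 (minus strand), the inner Dock9 stretch chr14:121698418-121698667 (minus strand) and the Med13l stretch chr5:118560469-118560678 (plus strand).
Pld1: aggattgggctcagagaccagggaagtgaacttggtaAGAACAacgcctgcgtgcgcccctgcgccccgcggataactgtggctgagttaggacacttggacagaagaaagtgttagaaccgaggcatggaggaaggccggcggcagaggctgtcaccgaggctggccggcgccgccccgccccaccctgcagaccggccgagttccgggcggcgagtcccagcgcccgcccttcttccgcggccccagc
Dock9, outer start: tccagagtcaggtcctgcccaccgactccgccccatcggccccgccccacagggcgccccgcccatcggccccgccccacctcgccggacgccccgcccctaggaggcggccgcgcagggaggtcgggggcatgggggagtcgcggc
Dock9, inner start: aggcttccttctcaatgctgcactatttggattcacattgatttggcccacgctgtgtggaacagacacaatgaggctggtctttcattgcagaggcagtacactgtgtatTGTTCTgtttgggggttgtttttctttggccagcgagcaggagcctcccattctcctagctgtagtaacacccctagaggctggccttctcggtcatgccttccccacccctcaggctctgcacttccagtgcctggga
Med13l: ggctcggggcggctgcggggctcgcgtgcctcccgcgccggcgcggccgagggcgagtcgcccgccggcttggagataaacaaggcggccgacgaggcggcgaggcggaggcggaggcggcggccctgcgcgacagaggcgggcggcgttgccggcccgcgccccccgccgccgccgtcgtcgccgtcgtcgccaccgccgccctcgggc
The half-site occurred once before the outer Pld1 start, at positions -213 to -208, and once before the inner Dock9 start, at positions -139 to -134. Positions are counted back from the base before the start. No match lay in the 250 bases before the other 4 starts, Med13l included. Among all 32851 promoter windows of the table, 16.1% held the half-site in these 250 bases. The full palindrome of both half-sites with 3 bases between them, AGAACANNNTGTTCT, was in 0 of the 6 windows of 300 bases and in 3 of all windows (0.00913%). The stretch before the Med13l start was the richest in G and C (84.0% of 250 bases), followed by the outer Dock9 start (78.8%) and the outer Pld1 start (67.2%).

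Library totals ranged from 16.45 M to 23.12 M counts. GRwt/wt vehicle replicate 1 stood apart. The library most similar to it had a Spearman correlation of 0.916, against at least 0.973 for each of the others, and the deviation of its genes from their medians followed the GC content of the transcripts (Spearman coefficient 0.709). Markers defining fibroblasts were detected throughout, with summed levels of 32830 to 57360 CPM (counts relative to the TMM-scaled library size). Col1a1 stayed between 9205 and 15650 CPM, whereas Lum ranged from 11.3 to 1435 CPM, Dcn from 84.1 to 1668 CPM and Thy1 from 58.5 to 300 CPM. All 12 macrophage markers were detected in GRwt/wt vehicle replicate 3, where they summed to 5399 CPM, against at most 111 CPM in the other GRwt/wt libraries, with 2 of the 12 at 0 in vehicle replicate 1. They summed to 292 to 1849 CPM in GRD/D and GRL/L and to 8.68 to 90.2 CPM in GRD+L/D+L. In these bulk samples, fewer cells of a type and less RNA per cell cannot be told apart. Nr3c1, the GR gene, was present in all groups, at 4.08 CPM in GRwt/wt vehicle replicate 1 and up to 88.0 CPM in the other GRwt/wt vehicle libraries. Its vehicle means were 55.0 ± 44.8 CPM in GRwt/wt, 106 ± 1.36 CPM in GRD/D (n = 2), 135 ± 2.44 CPM in GRL/L and 205 ± 66.9 CPM in the double mutant, and each mutant library lay above the GRwt/wt libraries. Between mutants in vehicle the adjusted p for Nr3c1 was at least 0.551 with all libraries in the fit (edgeR). In a fit of the mutant libraries alone, Nr3c1 was 1.91-fold higher in GRD+L/D+L than in GRD/D (adjusted p 0.0379, edgeR). In that fit the adjusted p was 0.450 for GRL/L against GRD/D and 0.1775 for GRD+L/D+L against GRL/L. The part of Nr3c1 in the differences of the Dex response was not tested, and its level does not identify a point mutation.

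In GRwt/wt, Pld1 stood at 10.3, 21.2 and 24.6 CPM in the vehicle libraries and at 55.9, 64.7 and 54.2 CPM in the Dex libraries, in the order of replicates 1 to 3. Every Dex library was above every vehicle library, and the means were 18.7 ± 7.50 and 58.3 ± 5.67 CPM (SD, n = 3 each), a 3.12-fold difference. Dock9 stood at 10.9, 23.1 and 18.2 CPM in vehicle and at 36.6, 44.4 and 37.8 CPM with Dex. The groups did not overlap, with means of 17.4 ± 6.15 and 39.6 ± 4.19 CPM and a 2.28-fold difference. Med13l stood at 25.5, 47.0 and 52.8 CPM in vehicle and at 74.9, 107 and 87.3 CPM with Dex. Its means were 41.8 ± 14.4 and 89.6 ± 16.0 CPM, a 2.14-fold difference, again without overlap. These are the values that chose the genes.

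**Figure D1:**
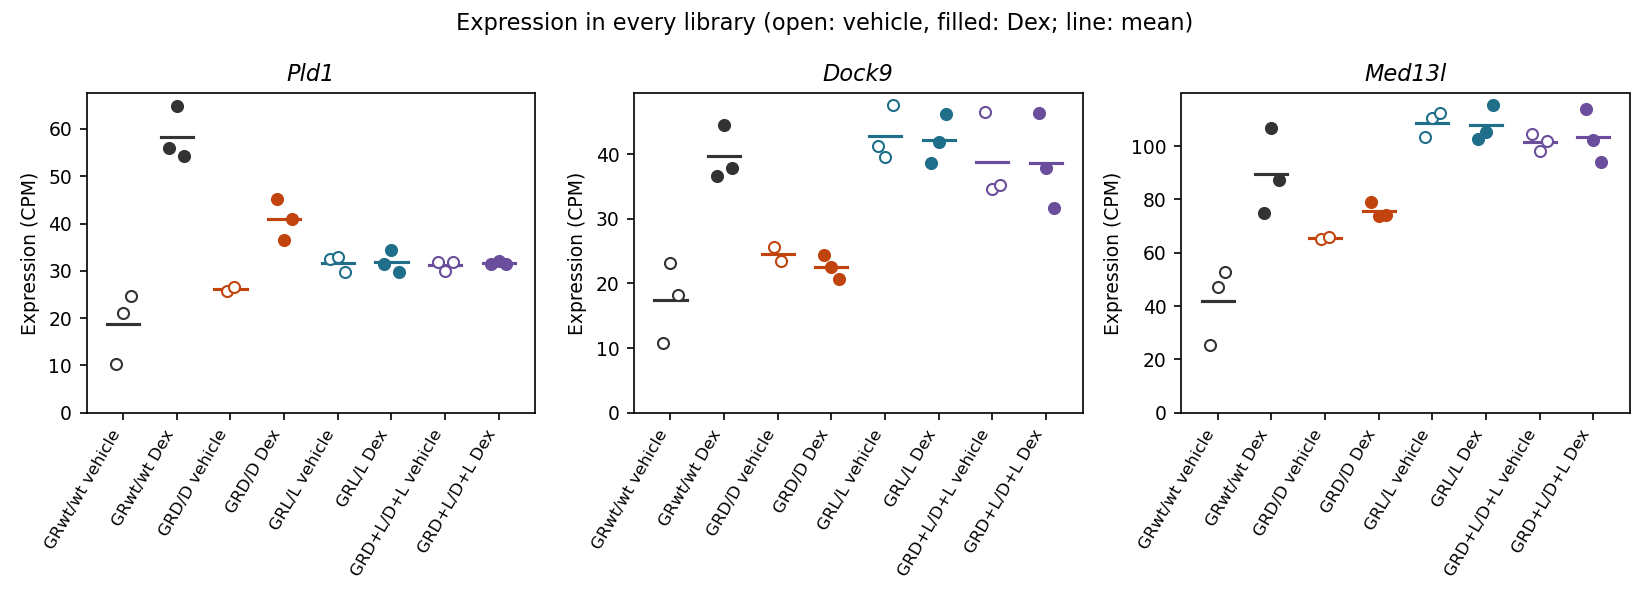
Expression in CPM (vertical axes, from 0) of Pld1, Dock9 and Med13l in all 23 libraries, grouped by genotype and treatment, with 1 point per library (open for vehicle, filled for Dex) and a line at the mean. Pld1 was highest in GRwt/wt with Dex (54.2 to 64.7 CPM), whereas Dock9 and Med13l with Dex in GRwt/wt lay within or below the range of GRL/L and the double mutant.

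In each gene, the lowest of the GRwt/wt vehicle values belonged to replicate 1, the library that stood apart. It deviated from the median of the gene over all libraries by -1.62 for Pld1, -1.74 for Dock9 and -1.94 for Med13l on the log2 scale. Transcript GC content was 46.2% for Pld1, 49.6% for Dock9 and 52.2% for Med13l, against a median of 49.9% over the genes tested. Its part in the Dex difference was measured by leaving it out. The log2 fold change (LFC) then changed from 1.64 to 1.35 for Pld1, from 1.19 to 0.95 for Dock9 and from 1.10 to 0.84 for Med13l. Without vehicle replicate 3, the library with macrophage transcripts, the values were 1.92, 1.26 and 1.34. Without both of these libraries, which leaves 1 vehicle library, they were 1.45, 0.77 and 0.92. Pld1 kept an LFC above 1 in each of these fits, whereas Dock9 and Med13l passed 1 only in that without vehicle replicate 3. Med13l was also below 1 without Dex replicate 2 (0.96).

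**Figure D2:**
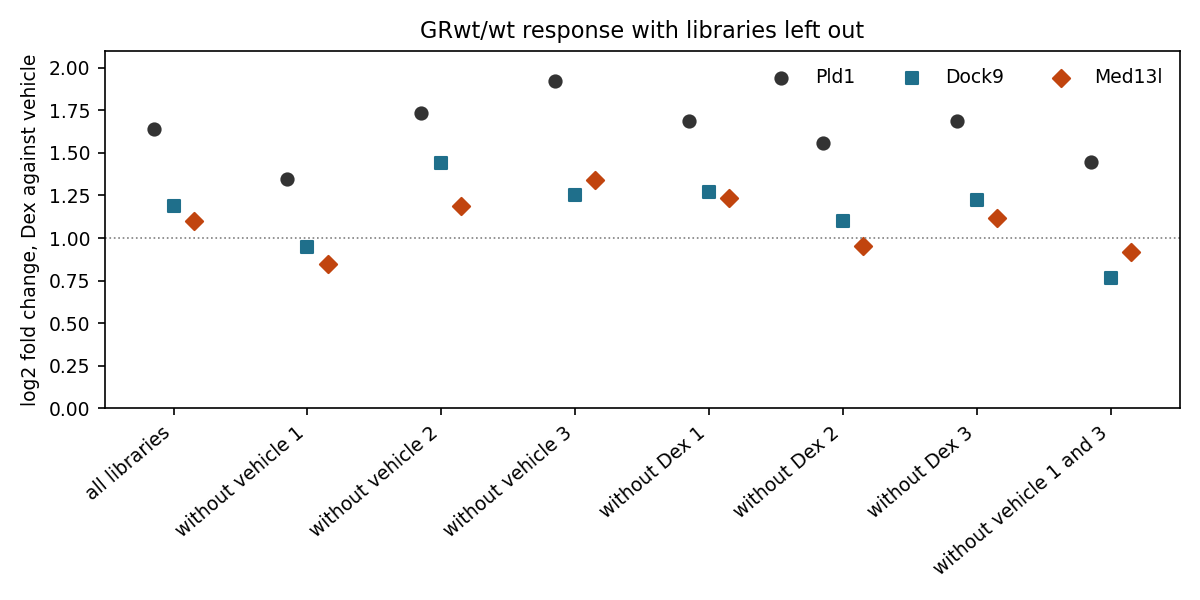
LFC of Dex against vehicle in GRwt/wt (vertical axis, log2 scale) for the 3 genes with all libraries, without each GRwt/wt library in turn and without vehicle replicates 1 and 3 together; the dotted line marks a 2-fold difference. Pld1 stayed between 1.35 and 1.92, while Dock9 and Med13l fell below 1 without vehicle replicate 1.

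In the whole table, 25 genes (0.159%) were called higher with Dex in GRwt/wt, at an adjusted p of at most 0.05 (edgeR, quasi-likelihood test) and an absolute LFC of at least 1, and nothing is read from this share because the same contrast chose the 3 genes. Of the genes with an adjusted p of at most 0.05 and at least 5 CPM in vehicle, 17 had an LFC of at least 1. Pld1 was the fifth by size, Dock9 number 11 and Med13l number 15. The gene just inside the threshold was Ust, a sulfotransferase (LFC 1.0005), and the gene just outside was Dusp1, a MAP kinase phosphatase (LFC 0.98). Fkbp5, a GR co-chaperone widely used as a marker of GR activity, had the highest value of these (LFC 3.49), and that of Tsc22d3, which encodes the glucocorticoid-induced leucine zipper, was 1.92.

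Whether a gene chosen in GRwt/wt also responded through the mutant receptors was tested in the mutants, whose libraries the choice did not use. Among all genes tested, edgeR with all libraries in the fit called 0 (0%) with Dex in each of the 3 mutants. At an unadjusted p under 0.05 there were 154 genes for GRD/D, 43 for GRL/L and 54 for the double mutant, and DESeq2 called 2, 0 and 5. In GRD/D, Pld1 stood at 25.8 and 26.5 CPM in vehicle and at 45.2, 36.5 and 41.0 CPM with Dex. All Dex libraries were above both vehicle libraries, and the means were 26.1 ± 0.508 (n = 2) and 40.9 ± 4.35 CPM (n = 3). The share of all genes that separated without overlap, here and in the comparisons below, was not counted. The LFC was 0.65 (SE 0.23, 95% CI 0.17 to 1.13), a 1.57-fold difference with an unadjusted p of 0.0114 and an adjusted p of 1 by edgeR. It ranked 32 of 15748 genes by p, and Fkbp5, with an LFC of 1.68, ranked 2.

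The adjusted p for Pld1 in GRD/D depended on which libraries were in the fit, while the fold change moved little. In a fit of the 17 mutant libraries the LFC was 0.64 (SE 0.09) with an adjusted p of 0.0232 by edgeR. Pld1 then ranked 4 by p and was 1 of 7 genes (0.0456%) that were higher with Dex at adjusted p alone. Without GRwt/wt vehicle replicate 1 the adjusted p was 0.0899, without vehicle replicates 1 and 3 it was 0.0319, and in the GRD/D libraries alone it was 0.377 (edgeR). The LFC was between 0.57 and 0.72 in all 35 alternatives, below the fold threshold, so Pld1 was not called in any. Macrophage markers summed to 1057 and 301 CPM in the GRD/D vehicle libraries and to 954, 1849 and 292 CPM in the Dex libraries, and their part in the difference of Pld1 was not tested.

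In GRL/L, Pld1 stood at 32.5, 33.0 and 29.7 CPM in vehicle and at 31.5, 34.5 and 29.7 CPM with Dex. In GRD+L/D+L it stood at 31.8, 30.0 and 32.0 CPM in vehicle and at 31.4, 32.0 and 31.4 CPM with Dex. Vehicle and Dex libraries overlapped in both genotypes, with an LFC of 0.0059 in GRL/L (95% CI -0.42 to 0.43) and 0.017 in GRD+L/D+L (95% CI -0.41 to 0.44). The fit of the mutants alone gave narrower intervals, from -0.16 to 0.18 in GRL/L and from -0.15 to 0.19 in GRD+L/D+L.

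The response of Pld1 was compared directly between mutants. The LFC in GRD/D exceeded that in GRL/L by 0.64 (95% CI 0.0028 to 1.28, unadjusted p 0.0491) and that in GRD+L/D+L by 0.63 (95% CI -0.0081 to 1.27, unadjusted p 0.0527), each with an adjusted p of 1 by edgeR. In the fit of the mutants alone these differences were 0.63 (95% CI 0.38 to 0.89, adjusted p 0.481) and 0.63 (95% CI 0.37 to 0.88, adjusted p 0.465), and Pld1 ranked 4 of the genes by p in both. The response in the double mutant exceeded that in GRL/L by 0.011 (95% CI -0.59 to 0.61). With all libraries, edgeR called no gene in any of these 3 differences (0% each), with 74, 103 and 61 genes at an unadjusted p under 0.05. DESeq2 called 0, 4 and 5. In the fit of the mutants alone, edgeR called 1 gene (0.00652%) in each of the differences with GRD/D, which was not Pld1, and 0 between the double mutant and GRL/L. Among the 17 genes named above by their LFC in GRwt/wt, the GRD/D value of Pld1 was the fourth, after Fkbp5 (1.68), the clock gene Per1 (1.35) and Plekhf1 (0.72).

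**Figure D3:**
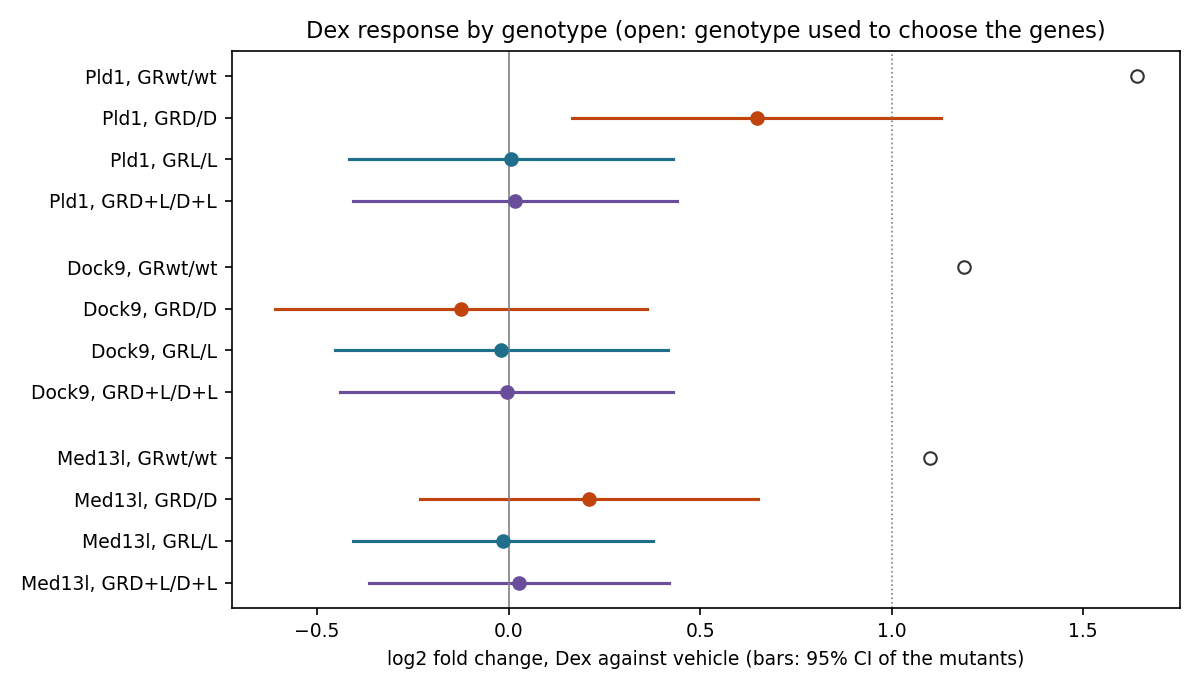
LFC of Dex against vehicle (horizontal axis) for each gene and genotype, with 95% confidence intervals for the mutants; open points are GRwt/wt, the genotype that chose the genes, and the dotted line marks a 2-fold difference. Of the 9 values in mutants in this fit of all libraries, only the interval of Pld1 in GRD/D (0.17 to 1.13) lay above 0. In the fit of the mutants alone, that of Med13l in GRD/D (0.031 to 0.38) did as well.

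Dock9 did not show the same order. In GRD/D it stood at 25.6 and 23.5 CPM in vehicle and at 24.4, 22.6 and 20.7 CPM with Dex. The groups overlapped and the LFC was -0.12 (95% CI -0.61 to 0.36, adjusted p 1 by edgeR). In GRL/L the vehicle libraries held 41.3, 39.5 and 47.5 CPM and the Dex libraries 38.6, 41.9 and 46.2 CPM (LFC -0.019, 95% CI -0.45 to 0.41). In GRD+L/D+L they held 46.5, 34.6 and 35.2 CPM and 46.4, 37.9 and 31.7 CPM (LFC -0.0054, 95% CI -0.44 to 0.43). The same culture number tended to be high or low with and without Dex in the double mutant.

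Med13l stood at 65.1 and 65.8 CPM in GRD/D vehicle and at 78.9, 73.9 and 74.3 CPM with Dex. The groups did not overlap, but the LFC was 0.21 (SE 0.21, 95% CI -0.23 to 0.65, adjusted p 1 by edgeR), and it was 0.21 with an unadjusted p of 0.0246 and an adjusted p of 1 in the fit of the mutants alone. In GRL/L, Med13l held 103, 110 and 113 CPM in vehicle and 103, 105 and 115 CPM with Dex (LFC -0.015, 95% CI -0.41 to 0.38). In GRD+L/D+L the values were 105, 98.3 and 102 CPM and 114, 102 and 94.1 CPM (LFC 0.026, 95% CI -0.37 to 0.42). Differences of the Dex response between mutants were at most 0.22 for Med13l and between -0.12 and 0.014 for Dock9, each with an adjusted p of 1 by edgeR.

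The 3 genes differed in where the GRwt/wt cells with Dex fell among all groups. For Pld1, the order from the lowest mean was GRwt/wt vehicle, GRD/D vehicle, the 4 groups of GRL/L and the double mutant, GRD/D Dex and GRwt/wt Dex. The 4 groups of GRL/L and the double mutant overlapped one another, with means from 31.3 to 31.9 CPM, and the other neighbours in this order did not overlap. GRwt/wt with Dex exceeded the highest mutant library by 8.94 CPM. For Dock9, GRwt/wt vehicle and both GRD/D groups formed a low range from 10.9 to 25.6 CPM in which each group overlapped the next. The remaining 5 groups, GRwt/wt Dex included, overlapped at 31.7 to 47.5 CPM. For Med13l, GRwt/wt vehicle (25.5 to 52.8 CPM) and GRD/D vehicle stood below all others, GRD/D Dex overlapped GRwt/wt Dex, and GRwt/wt Dex overlapped GRD+L/D+L. The mean of Med13l with Dex in GRwt/wt was thus below that of GRL/L without ligand (108.8 ± 4.81 CPM).

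This raised the question of how the basal levels of the 3 genes differed between mutants, which was tested in vehicle. Dock9 was higher in GRL/L than in GRD/D by an LFC of 0.80 (SE 0.24, 95% CI 0.30 to 1.30), a 1.74-fold difference with an adjusted p of 0.0994 by edgeR, and higher in GRD+L/D+L than in GRD/D by 0.66 (SE 0.24, 95% CI 0.16 to 1.15, adjusted p 0.168). All 3 libraries of either genotype were above both GRD/D libraries, but the share of all genes that separated in this way was not counted. Med13l was higher in GRL/L by 0.73 (SE 0.21, 95% CI 0.29 to 1.18, adjusted p 0.0928) and in the double mutant by 0.63 (SE 0.21, 95% CI 0.19 to 1.08, adjusted p 0.143), also without overlap. Pld1 differed by 0.28 (95% CI -0.20 to 0.76, adjusted p 0.608) and 0.26 (95% CI -0.22 to 0.74, adjusted p 0.651). Between GRD+L/D+L and GRL/L, the LFC was -0.14 for Dock9, -0.099 for Med13l and -0.023 for Pld1, with adjusted p-values of at least 0.963. By edgeR, 170 genes (1.08%) were called between GRL/L and GRD/D, 160 (1.02%) between GRD+L/D+L and GRD/D and 15 (0.0953%) between GRD+L/D+L and GRL/L, none of the 3 genes among them.

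These basal differences passed the test at adjusted p alone, though not the fold threshold, when the GRwt/wt libraries were left out of the fit. With the mutants alone, the adjusted p by edgeR was 0.0048 for Dock9 (LFC 0.78) and 0.000126 for Med13l (LFC 0.72) in GRL/L, and 0.0158 (LFC 0.65) and 0.000514 (LFC 0.62) in GRD+L/D+L. For Pld1 it was 0.0513 and 0.0694. Such differences were common in that fit, since 10.7% of 15349 genes were higher in GRL/L and 9.26% were higher in GRD+L/D+L than in GRD/D at adjusted p alone. Macrophage markers summed to 301 and 1057 CPM in GRD/D vehicle, 343 to 778 CPM in GRL/L vehicle and 10.1 to 90.2 CPM in GRD+L/D+L vehicle, and their part in the basal differences was not tested.

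The other genes of each pathway were followed in lists chosen with earlier results of these data known. The list named phosphatidic acid enzymes for short also holds the phospholipase D family, Pld1 to Pld6. With Dex, 0 of 26 phosphatidic acid enzymes, 15 regulators of PLD1, 13 DOCK and ELMO genes, 27 CDC42 genes, 7 genes of the Mediator kinase module and 26 genes of core Mediator were called in any mutant by edgeR. In the fit of all libraries the unadjusted p was under 0.05 for 1 of them in GRD/D, Pld1 itself, against 154 of all 15748 genes. In the fit of the mutants alone it was also under 0.05 for Med13l in GRD/D (0.0246, edgeR). List medians of the LFC with Dex in GRD/D were between -0.039 and 0.034, against 0.0030 over all genes. Pld3, the most abundant gene of the phospholipase D family by name, had group means of 221 to 358 CPM. Its LFC was -0.01 in GRD/D and -0.30 in GRwt/wt, or -0.21 there without vehicle replicate 1. Cdc42, which is both an activator of PLD1 and the target of DOCK9, had group means of 466 to 638 CPM and an LFC between -0.0047 and 0.092 in the 4 genotypes. It was at 274 CPM in GRwt/wt vehicle replicate 1 and at 423 to 706 CPM in the other libraries, and its LFC in GRwt/wt turned from 0.092 to -0.23 without that library. Med13, the paralog of Med13l, had an LFC of 0.63 in GRwt/wt and of -0.022, -0.037 and 0.066 in GRD/D, GRL/L and the double mutant. The GRwt/wt value of Med13 was 0.082 without vehicle replicate 1, where Med13 was at 4.08 CPM against 45.7 to 144 CPM in all other libraries. Med12, an activator of the module's kinase, had an LFC of 0.073 in GRwt/wt and of 0.27 without that library.

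In vehicle, genes of the lists of Dock9 and Med13l lay mostly higher in GRL/L than in GRD/D. The median LFC was 0.65 for the DOCK and ELMO genes (12 of 13 positive) and 0.54 for the Mediator kinase module (5 of 7 positive), against 0.018 over all genes, with 0 called in either list. It was 0.18 for phosphatidic acid enzymes, -0.20 for regulators of PLD1, 0.073 for CDC42 genes and -0.15 for core Mediator. In GRD+L/D+L against GRD/D the DOCK and ELMO median was 0.56 (8 of 13 positive) and that of the kinase module 0.40 (4 of 7 positive). Med12 was the gene of the module with the lowest adjusted p, at 43.1 ± 5.91 CPM in GRD/D, 82.0 ± 7.00 CPM in GRL/L and 76.8 ± 6.45 CPM in GRD+L/D+L. Its LFC of 0.93 (adjusted p 0.0127) and 0.83 (adjusted p 0.0243) missed the fold threshold. Dock2, Dock8 and Dock10 were, like the macrophage markers, lowest on average in GRD+L/D+L among the mutants in vehicle and highest in GRwt/wt vehicle replicate 3, whereas the marker sums of GRL/L and GRD/D vehicle overlapped. Their means in vehicle were 5.28, 3.43 and 3.98 CPM in GRD/D, 7.96, 7.07 and 7.14 CPM in GRL/L and 0.715, 1.25 and 2.54 CPM in GRD+L/D+L, and they reached 49.9, 31.7 and 24.7 CPM in that GRwt/wt library. All 3 were on the positive side in GRL/L and on the negative side in GRD+L/D+L, and the part of these transcripts in the list medians was not tested.

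At adjusted p alone in the fit of the mutants (edgeR), 4 of 13 DOCK and ELMO genes were higher in GRL/L, Dock4, Dock6 and Dock9 among them, and 0 were lower. In the kinase module 3 of 7 were higher (Med12, Med13 and Med13l) and 0 were lower. Over all genes of that fit, 10.7% were higher and 10.1% lower. Of the phosphatidic acid enzymes, the list of Pld1, 5 of 25 were higher and 1 was lower, and of the regulators of PLD1 0 of 14 were higher and 5 lower. The CDC42 genes had 1 higher and 2 lower, and core Mediator had 2 higher and 5 lower. The double mutant had 9.26% of all genes higher and 9.28% lower, and 4 DOCK and ELMO genes were higher (Dock4, Dock5, Dock9 and Dock11) and Dock2 was lower. In the kinase module 4 were higher (Med12, Med13, Med13l and Cdk19, a kinase of the module) and Ccnc, its cyclin, was lower. The other lists had 2 higher and 2 lower (phosphatidic acid enzymes), 1 and 3 (regulators of PLD1), 3 and 2 (CDC42 genes) and 3 and 1 (core Mediator). With the fold threshold added, 0 genes of the lists were called in GRL/L (4.08% of all genes) in that fit. In the double mutant (5.6% of all genes) the calls were Dock5 and Dock11, both higher, and Dock2, Pld4 and Was, an effector of CDC42, all lower. Pld4 and Was averaged 12.4 and 1.28 CPM in GRD/D vehicle and 0.83 and 0.089 CPM in GRD+L/D+L vehicle. They reached 140 and 11.9 CPM in GRwt/wt vehicle. Like the macrophage markers, both were lowest on average in GRD+L/D+L among the mutants in vehicle. The part of macrophage transcripts in these calls was not tested.

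**Figure D4:**
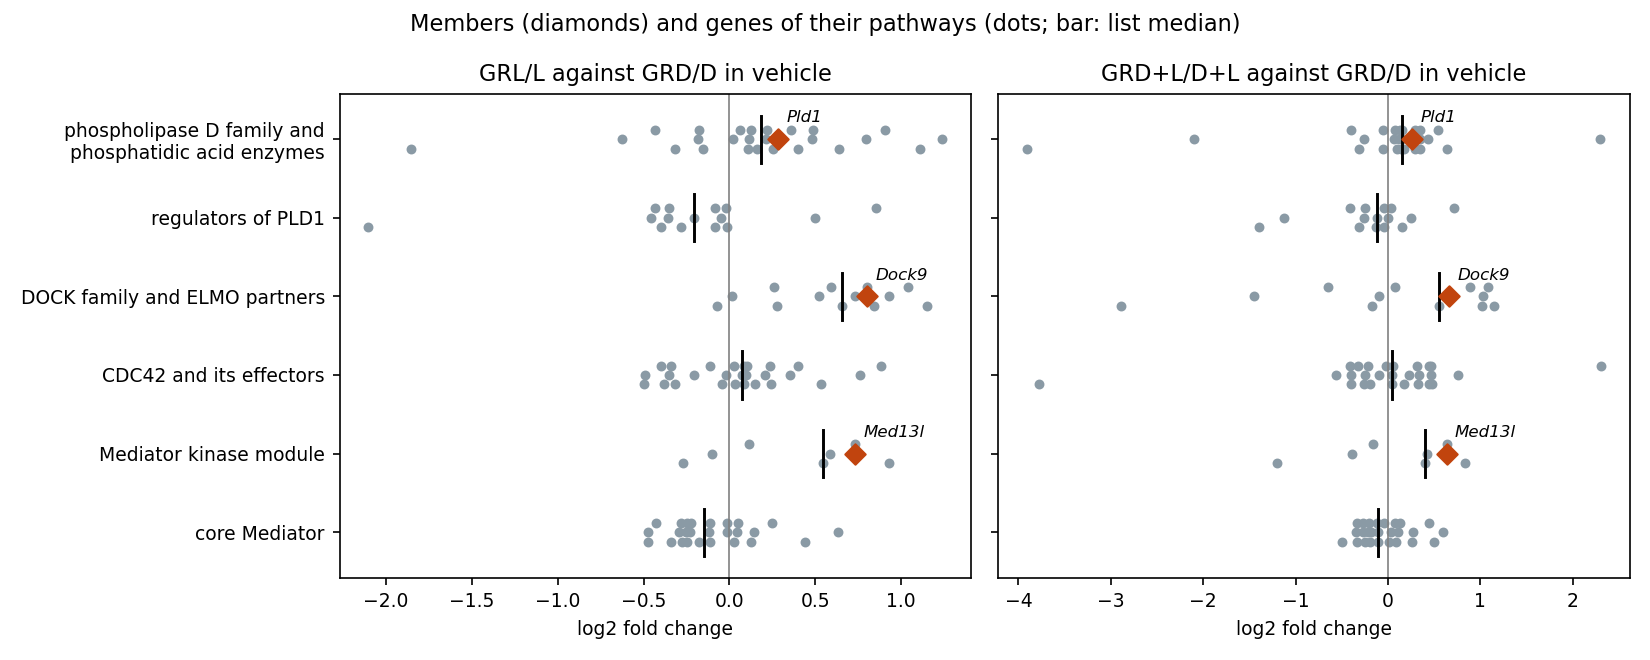
LFC in vehicle (horizontal axes) of GRL/L (left) and GRD+L/D+L (right) against GRD/D for genes of 6 pathway lists, with a dot per gene, a diamond for each of the 3 genes in its own list and a bar at the list median. The medians of the DOCK and ELMO genes (0.65 and 0.56) and of the Mediator kinase module (0.54 and 0.40) lay to the right of 0, with single genes on either side; the panels differ in scale.

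Across the 23 libraries, which fall into 8 groups of shared genotype and treatment, Dock9 and Med13l varied together (Pearson r 0.925 of log2 CPM), and Pld1 followed Med13l less closely (r 0.635). Without GRwt/wt vehicle replicate 1 the values were 0.877 and 0.286. Of 13240 other genes with a mean of at least 1 CPM, those most like Dock9 included Lrba, Med13l, Carmil1 and Pard3b (r 0.932 to 0.921), and those most like Med13l were Ep300, a histone acetyltransferase (r 0.96), Vps13d, Zfp551, Gpatch8 and Tmem131 (r 0.952 for the last). The genes most like Pld1 were Fam13a, Pdp1, Fam117b, Trim24 and Apbb2 (r 0.899 to 0.887). These changed to Per1 (r 0.95), Fkbp5 (r 0.892), Ust (r 0.892), Plekhf1 (r 0.878) and Wee1 (r 0.856) without that library, all of them among the 17 genes above the threshold in GRwt/wt. These 17 genes, Pld1 included, were selected on the same GRwt/wt libraries that enter the correlation, so this is in part fixed by the choice. The neighbours of Dock9 without that library were Ift80, Dpy19l3, Ehbp1, Nek9 and Tctn1 (r 0.938 to 0.911), and those of Med13l included Sik2, Notch2, Glg1 and Ep300 (r 0.927 to 0.917). These correlations are descriptive.

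**Figure D5:**
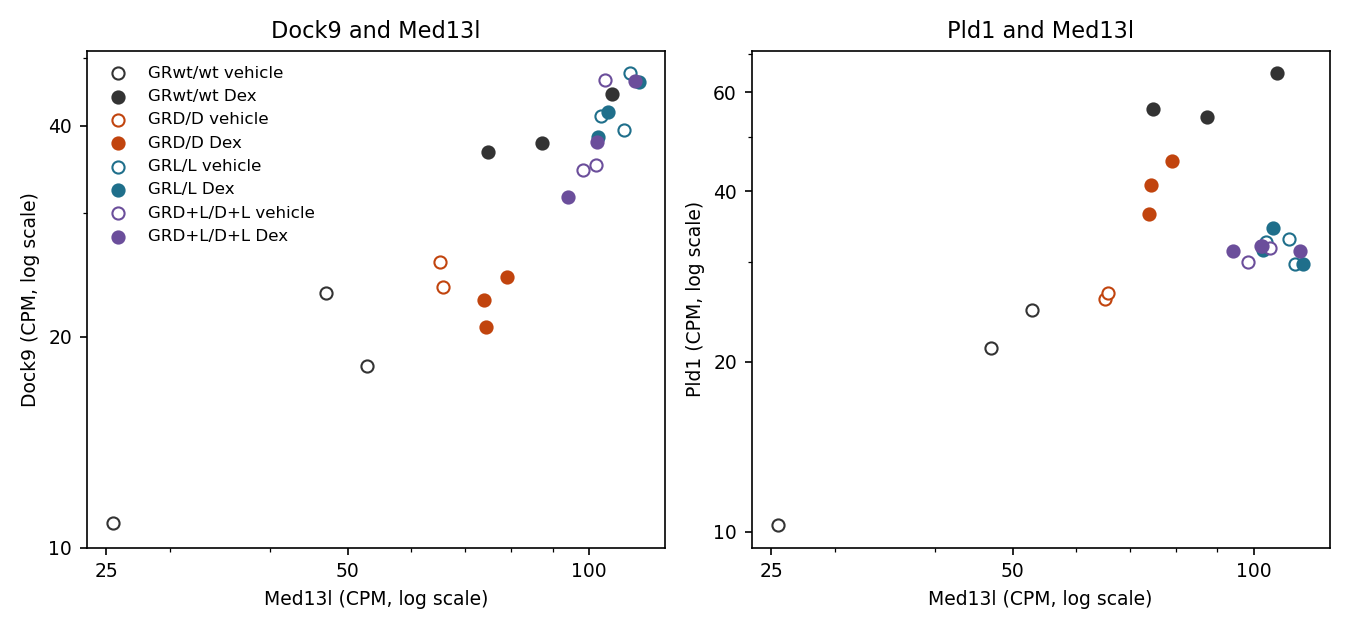
Dock9 (left) and Pld1 (right) against Med13l in CPM on log axes, with 1 point per library coloured by genotype (open for vehicle, filled for Dex). Dock9 and Med13l increased together (r 0.925), whereas Pld1 in GRL/L and the double mutant stayed near 32 CPM at the highest Med13l levels.

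Per kilobase of exon, the scale on which genes can be compared, Med13l was the most abundant of the 3 genes in each group. In GRwt/wt the level was 2.71 ± 0.934 CPM per kb in vehicle and 5.81 ± 1.04 with Dex for Med13l, 1.44 ± 0.579 and 4.50 ± 0.437 for Pld1, and 1.31 ± 0.464 and 2.99 ± 0.316 for Dock9. Pld1 and Dock9 were close to each other in GRwt/wt vehicle. In GRL/L, Dock9 (3.23 ± 0.318 CPM per kb in vehicle) was above Pld1 (2.45 ± 0.136), whereas in GRD/D Dock9 was below Pld1 both in vehicle (1.85 ± 0.109 and 2.02 ± 0.0392, n = 2) and with Dex (1.70 ± 0.139 and 3.16 ± 0.335).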

How the data were processed

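Per the labels and the study's methods, total RNA of MEFs was made into 23 TruSeq libraries, sequenced on a NovaSeq instrument and mapped to mm10 with HISAT2 2.1.0, and unique reads were counted with featureCounts 2.0.0 (versions from the submitters' processing notes). The authors deposited raw counts per Ensembl gene. Strandedness and annotation release were not given in the sources used here. Totals were 16.45 M to 23.12 M counts, and no pair of libraries in a group matched within counting noise (lowest mean chi-square per gene 9.617).

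The 3 genes and the pathway lists were chosen with earlier results of these data known. Symbols and coordinates came from GENCODE M21 and promoter sequences from RefSeq. Counts were fitted with edgeR 4.0.16 (R 4.3.3), quasi-likelihood test, in a model of all libraries with 1 mean per group, TMM scaling, filterByExpr (15748 genes) and a prior count of 0.125. P-values were two-sided and Benjamini-Hochberg adjusted over all genes. Calls required an adjusted p up to 0.05 and a 2-fold or larger difference (LFC of 1). The procedure was run on simulated counts with known changes, with the same spread for all genes and no library that stood apart. This does not cover the spread among the GRwt/wt libraries.

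Genes were named by rule: the 3 members, Fkbp5, Tsc22d3, Dusp1 and Nr3c1, genes at the edge of the choice, the 5 most correlated with each member, and from each list those called and the most abundant. A few genes that the rule names are not reported here. Med12, Dock2, Dock8, Dock10 and the list genes named for the fit of the mutants were chosen after their values were seen. Culture numbers paired the libraries of GRL/L (correlations of deviations 0.322, 0.644 and 0.631) and GRD+L/D+L (0.887, 0.788 and 0.652), but not all of those in GRD/D and GRwt/wt. Alternatives were other scalings, filters and prior counts, adjusted p alone, the replicate block, fewer genotypes in the fit, DESeq2 1.42.0 and leaving out each library. Leaving out 2 libraries together, the block with the mutants alone and the list genes without 1 library were added after seeing the data.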

Additional observations from a re-analysis of the deposited data

How the results depend on the processing

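For the 3 genes, signs held in the comparisons within GRwt/wt, within GRD/D and of GRL/L or GRD+L/D+L with GRD/D in vehicle under every alternative run. Dock9 in GRwt/wt moved from 1.19 to 0.77 without vehicle replicates 1 and 3. Some results missed the adjusted p with all libraries and passed it (edgeR unless named) in other fits. They were Pld1 with Dex in GRD/D with the mutants alone (0.64), without those 2 vehicle libraries (0.65) and with a replicate block of the mutants alone (0.62), and its excess over GRL/L (0.61) and GRD+L/D+L (0.61) with that block. Culture numbers did not pair all GRD/D libraries. The block on all libraries gave 0.64 for Pld1 in GRD/D (adjusted p 1) and changed no other call of the 3 genes. In vehicle, GRL/L against GRD/D passed for Dock9 and Med13l with the mutants alone (0.78 and 0.72), the 2 genotypes alone (0.78 and 0.72), DESeq2 (0.80 and 0.73) and without the 2 GRwt/wt libraries (0.81 and 0.74), and GRD+L/D+L against GRD/D with the mutants alone (0.65 and 0.62), the 2 genotypes alone (0.67 and 0.64) and without the 2 GRwt/wt libraries (0.67 and 0.64). Leaving out single libraries gave 0.72 to 0.86 for Dock9 and 0.71 to 0.77 for Med13l in GRL/L, and 0.52 to 0.74 and 0.62 to 0.66 in GRD+L/D+L, and without GRwt/wt vehicle replicate 1 all 4 passed the adjusted p, as Dock9 in GRL/L did without vehicle replicate 2. Values near 0 changed sign. Dock9 with Dex in GRD+L/D+L became 0.0019 with RLE scaling, 0.0022 with 10 counts in every library and 0.0021 with DESeq2, and Pld1 in GRD+L/D+L against GRL/L in vehicle became 0.013 with no filter. Leaving out single libraries gave, with Dex in GRL/L, -0.054 to 0.053 for Pld1, -0.088 to 0.063 for Dock9 and -0.066 to 0.020 for Med13l. With Dex in GRD+L/D+L the ranges were -0.011 to 0.033, -0.16 to 0.14 and -0.051 to 0.090, and for the difference of GRD+L/D+L from GRL/L in the Dex response -0.037 to 0.071, -0.14 to 0.16 and -0.037 to 0.11. They were -0.27 to 0.030 for Dock9 in GRD/D less GRD+L/D+L and -0.069 to 0.0049 for Pld1 in GRD+L/D+L against GRL/L in vehicle. The cause was not tested. Counts of called genes ranged widely, from 0 to 981 for GRL/L against GRD/D (170 with all libraries), from 7 to 860 for GRD+L/D+L against GRD/D (160), from 3 to 334 for GRD+L/D+L against GRL/L (15), from 0 to 374 in GRwt/wt (25) and from 0 to 75 in GRD/D (0). The 2 vehicle libraries of GRD/D limit every comparison with it.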
